A study of Mus musculus with 5 samples.

Results

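The cells described here are T cells of 2 mouse tumor-side lymph node libraries that showed RNA of the SMARTA receptor and no RNA of the regulatory T cell (Treg) genes Foxp3 and Il2ra, and that were not cycling. Cells were chosen by their counts of unique molecular identifiers (UMIs): a cell needed at least 1 UMI of Trbv13-1 or Trav14d-3-dv8, 0 UMIs of Foxp3 and of Il2ra, and UMIs of at most 1 of the 10 cycling genes Mki67, Top2a, Birc5, Cdk1, Ccna2, Ccnb2, Cenpe, Ube2c, Nusap1 and Aurkb. In the library labelled Treg depletion plus anti-CTLA4 antibody 1107 of 4343 cells met the rule, and in the library with antibody alone 1965 of 4566 did. Together these are 3072 of the 20149 cells of the series, which has 5 libraries with 1 library per group. The comparison sets SMARTA cells of mice labelled as depleted of Tregs and given CTLA4 blockade against those of mice given the blockade alone. Within the sorted cells Foxp3 was not lower in the libraries labelled as depleted: a Foxp3 UMI was held by 1649 of 4343 cells of the library labelled depletion plus antibody and 54 of 4566 with antibody, and by 1284 of 2186 labelled depletion and 16 of 1099 of untreated tumor. Whether Tregs outside the sort were depleted was not measured, and depletion below means the label of a library. All counts of a cell were used to choose it, so the levels of the genes named in the rule describe the choice and are no finding.

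Per the labels, both groups were SMARTA cells, T cell receptor transgenic CD4 T cells, sorted as CD4+CD45.1+ cells from the inguinal lymph node of the tumor side on day 8, and every library carries the genotype label C57BL/6. The depletion plus antibody mice received diphtheria toxin on days 0 and 2 and anti-CTLA4 antibody on days 0, 2 and 5, and the antibody mice received the antibody on the same days. The other libraries were Treg depletion alone, untreated tumor and naive SMARTA cells of the spleen. The series text speaks of Treg-depleted and WT mice, and the labels name no allele that makes Tregs sensitive to the toxin. The protocols disagree on the tumor, MC38 in one place and PyMG in another, so which was injected is unclear. An isotype antibody stands in the series text but in no library's labels, and the untreated library is named after its title. With 1 library per group, the treatment cannot be told apart from the mouse, the sort or the library, and no test between groups was made.

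SMARTA cells recognise a peptide of the lymphocytic choriomeningitis virus glycoprotein. Tregs restrain the activation of other T cells, partly through CTLA4, a receptor that competes with the co-stimulator CD28 for its ligands. Primed CD4 T cells can become helper cells, which make ligands such as CD40L and help B cells, or cells with granules that hold granzymes and perforin, a program in which the transcription factor Eomes takes part.

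The receptor variable genes carried the choice of cells, so their ends are shown, from the GENCODE M21 transcripts of mouse genome build GRCm38. Trbv13-1 lies at chr6:41116007-41116468 and Trav14d-3-dv8 at chr14:53078452-53079045, both on the plus strand. Each sequence gives the last 250 bases of the segment's transcript, 5′ to 3′. Capitals mark bases that differ from the most similar copy, which is Trbv13-2 for the beta segment and Trav14-3 for the alpha segment.
Trbv13-1: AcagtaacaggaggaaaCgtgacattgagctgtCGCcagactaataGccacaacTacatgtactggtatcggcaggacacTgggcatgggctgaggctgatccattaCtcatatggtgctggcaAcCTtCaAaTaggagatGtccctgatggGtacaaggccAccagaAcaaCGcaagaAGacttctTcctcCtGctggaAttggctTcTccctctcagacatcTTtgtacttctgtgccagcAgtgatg
Trav14d-3-dv8: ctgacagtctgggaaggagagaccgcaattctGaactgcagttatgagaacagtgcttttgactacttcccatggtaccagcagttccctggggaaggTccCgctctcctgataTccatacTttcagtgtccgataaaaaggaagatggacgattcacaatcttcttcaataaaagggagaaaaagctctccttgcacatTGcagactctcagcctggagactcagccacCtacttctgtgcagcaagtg
The beta segment differed from Trbv13-2 at 32 of these bases (87.2% identity). The alpha segment differed from Trav14-3 at 8 (96.8% identity), and from Trav14n-3 also at 8, so counts of the alpha segment could be shared with its copies. Of the chosen cells, 162 with depletion plus antibody and 498 with antibody held UMIs of both segments. UMIs of Trbv13-1 alone were held by 779 and 1174 chosen cells in the same order, and UMIs of Trav14d-3-dv8 alone by 166 and 293. After thinning, 35 other variable genes made up 9.56% of the variable gene UMIs of chosen cells with depletion plus antibody and 19.2% with antibody. That total includes both segments of the rule, so these shares depend on the choice of cells and are no finding. In CPM, defined below, Trbv13-1 stood at 585 with depletion plus antibody and 337 with antibody. The other variable genes summed to 78.8 and 112 CPM in the same order.

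Depth differed between the libraries. Chosen cells held a median of 2088 UMIs with depletion plus antibody and 4051 with antibody, over the 11924 genes of the tables. Each cell was therefore thinned at random to 1000 UMIs, which left out 92 shallower cells with depletion plus antibody and 0 with antibody. Levels below are counts per 1000000 (CPM) of the summed thinned UMIs of the remaining 1015 and 1965 cells. A single UMI was worth 0.985 CPM with depletion plus antibody and 0.509 CPM with antibody, and a gene at 0 UMIs was set to a floor of 3 UMIs per library (2.96 and 1.53 CPM) for its fold, given as "at least". Ratios carry exact 95% intervals that cover counting error only, not the spread between cells or between mice. Near the limits of the rule, 311 chosen cells with depletion plus antibody and 738 with antibody held UMIs of 1 cycling gene, 66 and 307 cells were left out with 2 such genes, and 91 and 27 were left out with 1 UMI of Foxp3 or Il2ra. A cell barcode was shared by the 2 libraries in 9 cases, 1 of them among chosen cells.

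Markers of other cells were seen in the chosen cells of each library. Cd4 itself stood at 409 CPM with depletion plus antibody and 766 with antibody, seen in 31.9% and 50.8% of chosen cells, and Cd8a stood at 0 and 1.02 CPM. The 14 B cell markers summed to 566 and 512 CPM, mostly Ighm with depletion plus antibody, where Ms4a1 was at 0. The 18 myeloid markers in the tables summed to 270 and 188 CPM, mostly Cst3, with Csf1r at 0 in each. The 10 markers of NK, NKT and gamma delta T cells summed to 275 and 494 CPM, mostly Trdc (250.2 and 474 CPM), with Ncr1, Tcrg-C1 and Tcrg-C2 at 0 in each. The 4 stroma and endothelium markers in the tables were nearly all Pecam1, at 305 and 197 CPM, and the 8 plasma cell markers summed to 155 and 174 CPM, with Mzb1 at 0 in each. Another 6 Treg genes outside the rule summed to 96.6 CPM with depletion plus antibody and 98.7 CPM with antibody. Without the chosen cells that held at least 2 markers of another cell type, 878 cells with depletion plus antibody and 1502 with antibody were left, of 1015 and 1965. In these, 1030 genes passed 1.5-fold upward and 978 downward, close to the counts with all chosen cells given next.

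Chosen cells with depletion plus antibody held more RNA of granule genes and of the transcription factor gene Eomes, more of the integrin gene Itga4, of dissociation stress genes and of quiescence genes, and less RNA of helper cell ligands, than chosen cells with antibody. Nkg7, a granule membrane protein gene, stood at 1123 CPM with depletion plus antibody and 28.0 CPM with antibody, and Eomes at 285 and 8.65 CPM. Wnt10a, a secreted Wnt ligand gene, stood at 0.985 and 323 CPM. A gene counted as measured with at least 50 thinned UMIs over both libraries. Of 7641 measured genes 1005 (13.2%) were higher with depletion plus antibody by 1.5-fold or more, and 943 (12.3%) lower by as much, which is what higher and lower mean in the counts below. At 2-fold these were 391 (5.12%) and 377 (4.93%), and the median log2 ratio over all measured genes was −0.00016. Counts of a list near these shares of all genes are given as a description and not as a result about the list.

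**Figure D1:**
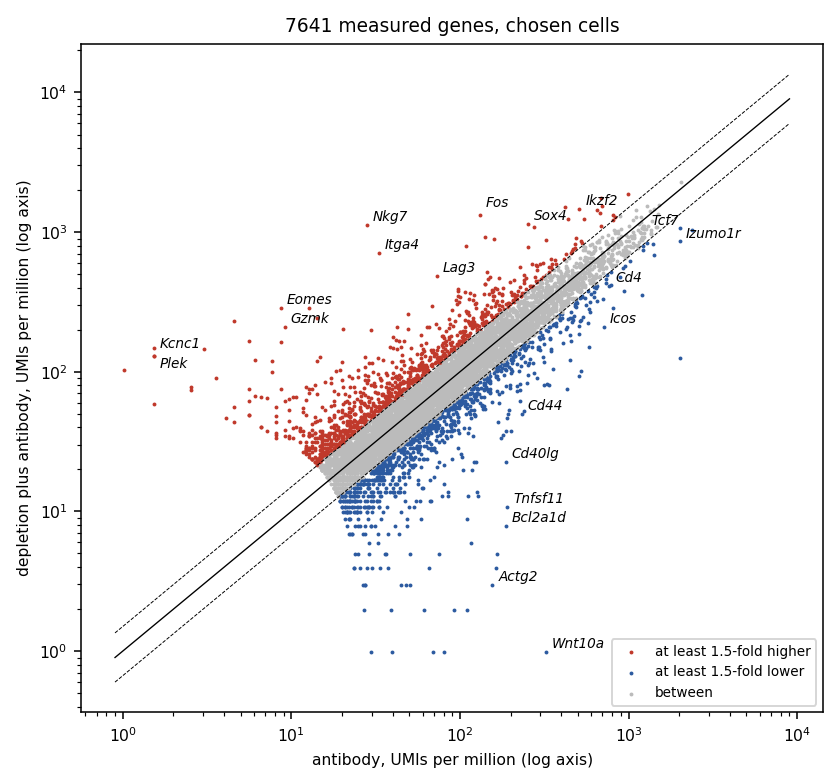
Each point is 1 of 7641 measured genes, placed by its level in chosen cells with antibody (horizontal, CPM, log axis) and with depletion plus antibody (vertical, CPM, log axis); genes at 0 UMIs are drawn at the floor of their library. The solid line marks equal levels and the dashed lines 1.5-fold; Nkg7, Itga4 and Eomes lie far above the lines, and Wnt10a, Actg2 and Tnfsf11 far below.

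Of the 15 highest genes 4 were granule genes, Nkg7, Prf1, Gzma and Gzmk. Nkg7 (chromosome 7, 43437073 to 43438249, plus strand) was 40.1-fold higher (30.6 to 53.6) with depletion plus antibody, and stood at 185 CPM in chosen cells of the depletion library, 55.8 in untreated tumor and 43.8 in naive spleen. Gzma, which encodes granzyme A, stood at 145 CPM with depletion plus antibody and 3.05 with antibody (47.4-fold higher, 21.3 to 131), and at 41.1, 0 and 69.4 CPM in depletion, untreated and naive cells. Prf1, the perforin gene, stood at 59.1 CPM with depletion plus antibody and had 0 UMIs with antibody (at least 38.7-fold higher). The granzyme K gene Gzmk (chromosome 13, 113171608 to 113225908, minus strand) stood at 210 CPM with depletion plus antibody and 9.16 with antibody, 22.9-fold higher (14.2 to 39.4), against 24, 11.5 and 0.377 CPM in the depletion, untreated and naive libraries. Of the 5 libraries, depletion plus antibody thus held the highest level of Nkg7, Gzma, Prf1 and Gzmk. Gzmb, the granzyme B gene, did not reach 50 UMIs, with 41.4 CPM in chosen cells with depletion plus antibody, 0 with antibody and 37.7 with depletion alone.

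Eomes (chromosome 9, 118478212 to 118486132, plus strand), a T-box factor of cytotoxic and memory T cells, was 32.9-fold higher (20.2 to 57.3) with depletion plus antibody, and stood at 75.3 CPM with depletion, 16.4 in untreated tumor and 2.64 in naive cells. Tbx21, the T-box factor of T helper 1 cells, was rarely seen, with 5 UMIs (4.93 CPM) with depletion plus antibody and 20 UMIs (10.2 CPM) with antibody. Ifng, the interferon gamma gene, did not reach 50 UMIs either and stood at 25.6 CPM with depletion plus antibody and 6.62 with antibody (3.87-fold higher, 1.92 to 8.21), while Ifngas1, a non-coding RNA gene near it, stood at 77.8 and 2.54 CPM (30.6-fold higher, 12.6 to 96.8). Of the 33 genes of the T helper 1 and cytotoxic list 16 were measured. The median of their log2 ratios was 1.14, with 11 higher and 4 lower. Ccl5, a chemokine gene of the same list, was 18.9-fold higher at 164 CPM with depletion plus antibody and 8.65 with antibody. The 4 lower members were Cxcr3, a chemokine receptor gene of T helper 1 cells (4.62-fold lower, at 52.2 and 241 CPM), Id2, Il18r1 and Ctla2a.

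Further genes among the 15 highest have roles outside granules. Itga4, which encodes the alpha 4 integrin chain, stood at 705 CPM with depletion plus antibody and 33.1 with antibody (21.3-fold higher, 16.5 to 27.9), and at 71.9, 42.7 and 278 CPM in depletion, untreated and naive cells. Nr4a2, an orphan nuclear receptor gene, stood at 103 and 1.02 CPM (102-fold higher, 27.4 to 850.3). Cd24a, a surface glycoprotein gene, stood at 148 and 1.53 CPM (96.8-fold higher, 32.5 to 475). Plek, which encodes pleckstrin, and Kcnc1, a potassium channel gene, each held 132 UMIs (130.05 CPM) with depletion plus antibody and had 0 UMIs with antibody, so each was at least 85.2-fold higher. Tubb2b, a beta tubulin gene, stood at 232 and 4.58 CPM, the claudin gene Cldn10 at 167 and 5.6 CPM, Tm6sf1 at 287 and 12.7 CPM, and Cxxc5 at 73.9 and 2.54 CPM. In the depletion library without antibody Plek held 4 UMIs (13.7 CPM), Cd24a 5 (17.1 CPM) and Cldn10 12 (41.1 CPM), while Kcnc1 held 1, under the floor of 3 UMIs.

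**Figure D2:**
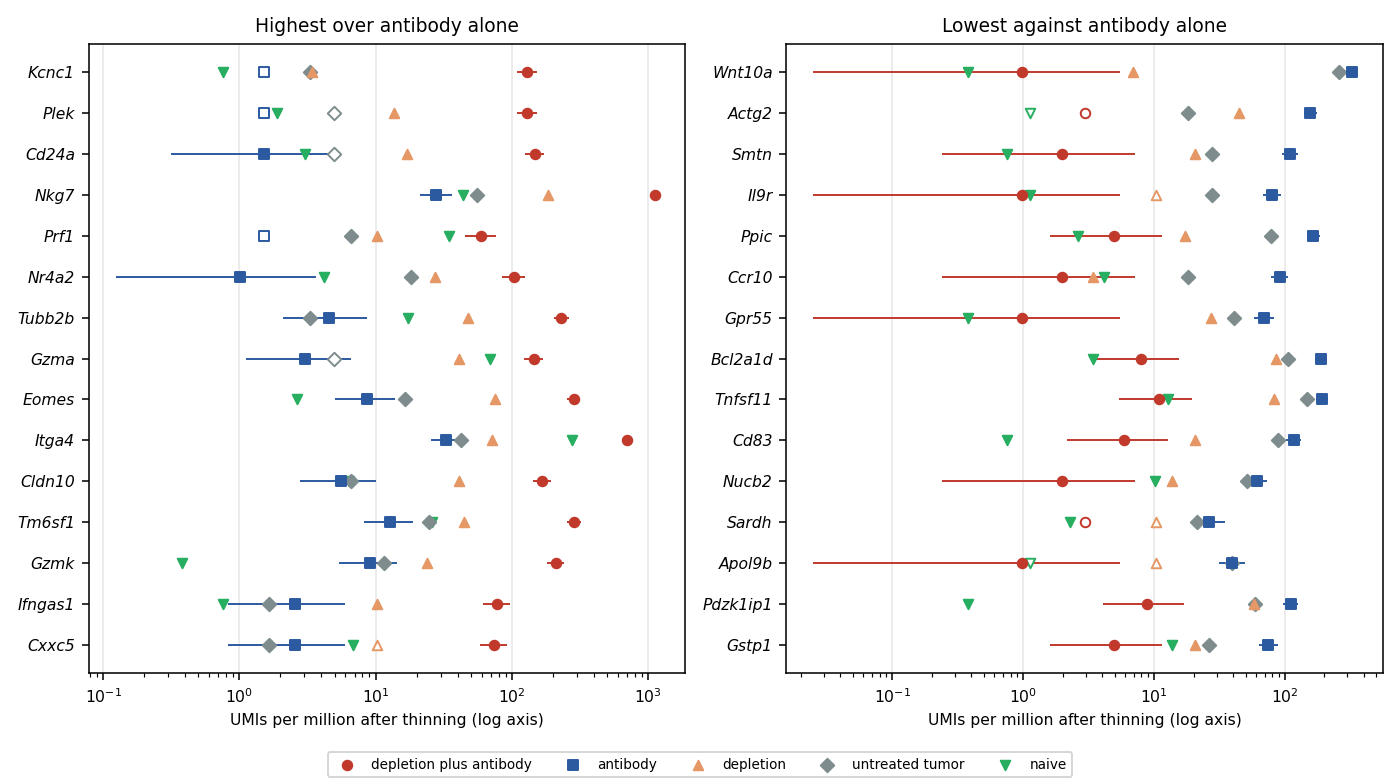
Levels (CPM after thinning, log axis) of the 15 highest and 15 lowest named genes in the chosen cells of all 5 libraries, with exact 95% counting intervals for depletion plus antibody and for antibody; open symbols are genes at 0 UMIs, drawn at the floor of 3 UMIs. Depletion plus antibody lies to the right of antibody for every gene of the left panel and to the left of it for every gene of the right panel.

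The shares of cells with a UMI differed as well. At 1000 UMIs, Nkg7 was seen in 49.6% of chosen cells with depletion plus antibody (95% interval 46.4 to 52.7%) and 1.37% with antibody (0.907 to 1.99%). Eomes was seen in 20% (17.6 to 22.6%) and 0.662% (0.353 to 1.13%), Itga4 in 39.8% and 2.49%, and Gzmk in 12.8% and 0.407%. As a background, Foxp3-positive cells of the depletion plus antibody library showed Eomes in 0.997%, Gzmk in 1.43%, Itga4 in 4.98% and Nkg7 in 23.9% of 1605 cells. Among 9 B or myeloid cells of that library, a group defined after the values were seen, none of these 4 genes was seen (95% interval up to 33.6%). Of 30 such cells of the antibody library none showed Nkg7, Eomes or Gzmk (95% interval up to 11.6%), and 1 showed Itga4 (3.33%, 0.0844 to 17.2%). Median depth before thinning was 2177 UMIs in the chosen cells, 4730 in the Foxp3-positive cells and 8466 in the B or myeloid cells. So few B or myeloid cells set only a wide bound, and whether the antibody shares are background was not resolved by it.

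**Figure D3:**
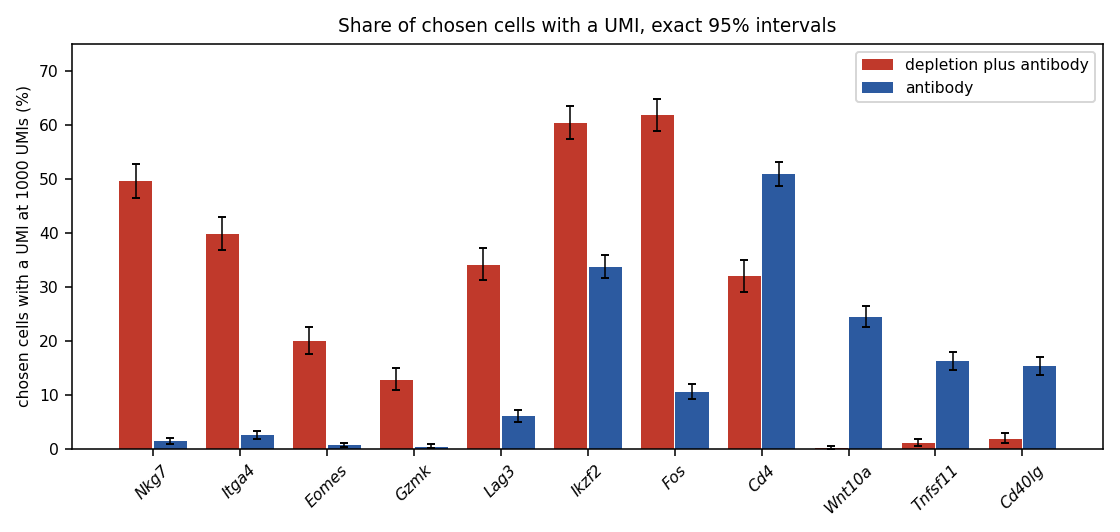
Bars give the percentage of chosen cells with at least 1 UMI of a gene after thinning to 1000 UMIs, with depletion plus antibody on the left of each pair and antibody on the right; error bars are exact 95% binomial intervals. Nkg7 reaches 49.6% and 1.37%, and Wnt10a 0.0985% and 24.4%.

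Several helper cell ligands were lower. Of 10 measured genes of the cytokine and TNF ligand list 7 were lower and 1 was higher with depletion plus antibody, and the median of the log2 ratios was −2.33. Tnfsf11, the RANKL gene, stood at 10.8 CPM with depletion plus antibody and 191 with antibody (17.7-fold lower, 9.76 to 35.7), and at 82.2, 146 and 12.8 CPM in depletion, untreated and naive cells. Cd40lg, which encodes the CD40 ligand that helps B cells, stood at 22.7 and 187 CPM (8.27-fold lower, 5.42 to 13.2), against 127, 208 and 281 CPM in depletion, untreated and naive cells. Tnfsf14, the LIGHT gene, was 6.60-fold lower and Lta, the lymphotoxin alpha gene, 5.32-fold lower. Il2 and Tnf also counted among the lower members, at 10.8 and 15.8 CPM with depletion plus antibody and 53.4 and 80.9 CPM with antibody. The higher member was Fasl, which encodes the death receptor ligand, at 40.4 CPM with depletion plus antibody and 17.8 with antibody.

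Wnt10a (chromosome 1, 74791516 to 74804179, plus strand) led the lower genes, with 1 UMI with depletion plus antibody and 635 with antibody (328-fold lower, 58.7 to 12976). It stood at 6.85 CPM with depletion, 258 in untreated tumor and 0.377 in naive cells, so that the toxin libraries and the naive library were low and the other 2 tumor libraries high. Actg2, a smooth muscle actin gene, had 0 UMIs with depletion plus antibody and stood at 156 CPM with antibody (at least 52.7-fold lower). Il9r, the interleukin 9 receptor gene, stood at 0.985 and 79.9 CPM, the chemokine receptor gene Ccr10 at 1.97 and 91.6 CPM, the lipid receptor gene Gpr55 at 0.985 and 69.2 CPM, and Cd83, a surface marker of activated cells, at 5.91 and 117 CPM. The survival genes Bcl2a1d and Bcl2a1b stood at 7.88 and 101 CPM with depletion plus antibody and at 188 and 523 CPM with antibody, but they belong to a family of near-identical copies, so their counts are uncertain. The rest of the 15 lowest were Smtn, Ppic, Nucb2, Sardh, Apol9b, Pdzk1ip1 and Gstp1, with between 0 and 9 UMIs each with depletion plus antibody.

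The T follicular helper list was split, with 4 of 19 measured members higher and 6 lower (median log2 ratio −0.26). Bcl6, the master regulator of these cells, stood at 58.1 CPM with depletion plus antibody and 27.5 with antibody (2.12-fold higher, 1.44 to 3.12), and Pou2af1, a B cell and follicular co-activator gene, at 93.6 and 21.9 CPM. Cxcr5, the follicle homing receptor gene, stood at 72.9 and 59.5 CPM with an interval of the ratio from 0.903 to 1.65. Tox2 was 5.34-fold lower at 22.7 and 121 CPM, and Il6ra, an interleukin 6 receptor chain, 3.01-fold lower. Tcf7, which encodes the factor TCF1 of naive and helper cells, stood at 1059 CPM with depletion plus antibody and 1265 with antibody, 1.19-fold lower and thus short of 1.5-fold. All 4 measured members of the T helper 2 and T helper 17 list had ratios below 1, and 2 of them were lower, Rora (4.91-fold, at 11.8 and 58.0 CPM) and Ahr (2.49-fold).

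Inhibitory and co-stimulatory receptors also went both ways. Lag3, an inhibitory receptor gene, stood at 484 CPM with depletion plus antibody and 73.3 with antibody (6.60-fold higher, 5.47 to 8.00), and at 70.6 in untreated tumor and 2.26 in naive cells. Ctla4, the target of the antibody, stood at 199 and 132 CPM (1.51-fold higher, 1.25 to 1.82), while Pdcd1, which encodes PD-1, stood at 125 and 138 CPM with an interval from 0.726 to 1.12. Btla and Cd160, further inhibitory receptor genes, were 1.75-fold and 1.67-fold lower, and in all 2 of 8 measured inhibitory receptors were higher and 3 lower. Ctla4 passed 1.5-fold only narrowly, and its log2 ratio of 0.59 ranged from 0.40 to 1.44 under the alternatives, so this count depends on the processing. Of 12 co-stimulation genes 2 were higher and 3 lower. Icos, a co-stimulator of helper cells, stood at 209 CPM with depletion plus antibody and 711 with antibody (3.40-fold lower, 2.94 to 3.95), and Cd28, the receptor that CTLA4 competes with, at 598 and 663 CPM (1.11-fold lower). Tnfrsf9, the 4-1BB gene, was 2.55-fold higher and Tnfrsf4, the OX40 gene, 2.75-fold lower.

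The Treg list, which shares genes with other activated T cells, had 4 of 13 measured members higher and 6 lower. Ikzf2, the Helios gene, stood at 1459 CPM with depletion plus antibody and 511 with antibody (2.85-fold higher, 2.63 to 3.09), and was seen in 60.4% and 33.7% of chosen cells. In Foxp3-positive cells of the depletion plus antibody library, which the rule left out, it stood at 1636 CPM and Ctla4 at 2563 CPM. Izumo1r, the folate receptor 4 gene of Tregs and anergic cells, stood at 857 and 2006 CPM (2.34-fold lower), Ebi3, a cytokine subunit gene, at 13.8 and 127 CPM, and Capg, an actin capping gene, at 81.8 and 327 CPM. Since a shallow cell shows Foxp3 and Il2ra less often, Tregs among the chosen cells were looked for with the 6 further Treg genes given above, whose members differed. Nrp1 stood at 53.2 CPM with depletion plus antibody and 68.2 with antibody and Gpr83 at 1.97 and 6.62 CPM, while Ikzf4 stood at 36.5 and 22.9 CPM (1.59-fold higher, 1.00 to 2.52). Lrrc32 held 3 UMIs with depletion plus antibody and 0 with antibody, and Il10 held 2 and 0. The part of Tregs in these values was not tested.

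Among 19 measured naive and homing genes 7 were higher and 4 lower, around a median log2 ratio of 0.16. Rasgrp2, an activator of integrin signalling, was 4.0-fold higher and Klf3 3.04-fold higher. Ccr7, a lymph node homing receptor gene, went the opposite way at 199 and 322 CPM (1.62-fold lower), and the interleukin 7 receptor gene Il7r stood at 137 and 135 CPM. Among chemokine and lymph node receptors 4 of 11 were higher and 2 lower, with Cxcr4 5.88-fold higher at 80.8 and 13.7 CPM, and Gpr183 1.95-fold higher. Of 17 cell cycle inhibitor and quiescence genes 9 were higher and 1 was lower, with Klf6 3.42-fold, Tsc22d3 3.21-fold, Klf2 2.21-fold and Cdkn2d, an inhibitor of cyclin-dependent kinases, 2.14-fold higher.

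Migration, S100 and cytoskeleton genes numbered 24, of which 5 were higher and 9 lower. Cd44, the hyaluronan receptor gene of antigen-experienced T cells, stood at 50.2 CPM with depletion plus antibody and 232 with antibody (4.62-fold lower, 3.45 to 6.30), and at 89.0, 199 and 34.0 CPM in depletion, untreated and naive cells. Lgals3, the galectin 3 gene, was 6.78-fold higher at 62.1 and 9.16 CPM. The integrin genes of this list thus did not move together: Itga4 was 21.3-fold higher, while Itgb1, the beta 1 chain that pairs with it, stood at 152 CPM with depletion plus antibody and 585 with antibody (3.86-fold lower).

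T cell receptor response genes were split, 7 of 19 being higher and 4 lower around a median log2 ratio of 0.12. Besides Nr4a2, Spry1, a feedback inhibitor of kinase signalling, stood at 40.4 and 6.62 CPM (6.11-fold higher) and the phosphatase gene Dusp5 at 108 and 27.5 CPM (3.94-fold higher), while Irf4, a factor of effector differentiation, was 4.60-fold lower at 10.8 and 49.9 CPM. The 16 anergy and tolerance genes had 4 higher and 3 lower members, with the ubiquitin ligase gene Cblb 2.94-fold higher and Ubash3a, which encodes a suppressor of receptor signalling, 2.67-fold lower. Nrn1, the neuritin gene of anergic and follicular cells, held 8 UMIs with depletion plus antibody and 25 with antibody.

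Dissociation stress genes, which handling of tissue can raise, had 8 of 12 measured members higher and 0 lower around a median log2 ratio of 1.49. Fos, an AP-1 subunit gene, stood at 1336 CPM with depletion plus antibody and 132 with antibody (10.1-fold higher, 8.87 to 11.6), and at 414 with depletion, 361 in untreated tumor and 106 in naive cells. Fosb was 7.36-fold, Dusp1 3.88-fold and Jun 3.59-fold higher. This list overlaps the receptor signalling list in Nr4a1, and Klf6 is on the quiescence list as well. Mitochondrial UMIs made up 0.155% of the chosen cells' UMIs with depletion plus antibody and 0.105% with antibody, over 5 listed genes. The part of handling in the receptor signalling, quiescence and stress values was not tested. Within the depletion plus antibody library, Fos stood at 1336 CPM in chosen cells and 1205 in cells without a receptor UMI that otherwise met the rule. It stood at 643 CPM in cells with Il2ra but no Foxp3 and at 232 in Foxp3-positive cells. The 9 B or myeloid cells held 12 UMIs of Fos (1333 CPM, 689 to 2329). In the antibody library these groups stood lower too: 180 CPM without a receptor UMI, 118 with Il2ra but no Foxp3, and 74.1 in Foxp3-positive cells (4 UMIs). Its 30 B or myeloid cells held 6 UMIs (200 CPM, 73.4 to 435). The higher Fos was thus not confined to chosen cells. The wider group of cells that are not T cells, described below, went the other way at 124 CPM with depletion plus antibody and 181 with antibody.

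The interferon and cytokine lists held members in both directions, some at about the share of all genes (13.2% higher, 12.3% lower), as for the higher type I interferon, cytokine receptor and TGF-beta genes and the lower interferon gamma genes. The 38 type I interferon genes had 7 higher and 10 lower members, with Ifi214 3.60-fold higher, Oas1a, a viral RNA sensor gene, 4.86-fold lower, Rsad2 2.66-fold lower and Ifit3b, which has a near copy in Ifit3, 2.54-fold lower. In the interferon gamma list 7 of 25 members were higher and 3 lower. Socs3, a feedback inhibitor of cytokine signalling, stood at 120.2 CPM with depletion plus antibody and 7.63 with antibody (15.8-fold higher, 9.18 to 29.0), and Cxcl10, a chemokine gene, at 3.94 and 33.6 CPM. In the depletion library Socs3 stood at 110 CPM and in untreated tumor at 6.57, so the 2 toxin libraries lay above the other 2 tumor libraries. Among 19 cytokine receptor genes 2 were higher, Il10ra at 118 and 19.8 CPM and Ifngr1 at 296 and 68.7 CPM, and 5 were lower. In the IL-2 and STAT5 list 5 of 19 were higher, with Pim1 3.45-fold higher, and 6 lower, with Bcl2l1, the BCL-XL gene, 3.37-fold lower. Of 11 TGF-beta response genes 1 was higher, Tgif1 at 3.32-fold, and 4 were lower, with Ldlrad4 2.70-fold and Smad3 1.88-fold lower. The survival list had 7 of 19 members higher, 5 of them GIMAP family genes, and 4 lower. Klrb1c was the 1 measured killer lectin receptor, at 21.7 and 15.3 CPM.

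Metabolic and protein quality genes showed few members past 1.5-fold, with counts below or near the background except for cholesterol synthesis. Smaller shifts were seen: all 25 measured proteasome genes had ratios below 1 (median log2 ratio −0.29, highest −0.077). The respiration median was −0.30, with members from −0.74 to 0.36. Under the alternatives these medians ranged from −0.41 to −0.076 and from −0.38 to −0.098. Of 14 cholesterol synthesis genes 7 were lower and 0 higher, around a median log2 ratio of −0.59, with Cyp51 3.43-fold, Sqle 3.32-fold and Nsdhl 3.0-fold lower. Respiration genes had 1 of 31 lower, Atp5k at 1.67-fold, and 0 higher, proteasome genes 3 of 25 lower, among them Psme2 at 1.66-fold, and 0 higher, and Myc target and ribosome building genes 3 of 27 lower, among them Nop16 at 2.2-fold, and 0 higher. Heat shock and chaperone genes had 1 of 22 higher, Hsp90aa1 at 1.62-fold, and 4 lower, and glycolysis genes 2 of 14 higher and 2 lower, with Eno1, which has a retrocopy that can share its reads, 5.66-fold lower.

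Cell cycle genes are tied to the rule and are given as a description. Of 23 S phase genes 1 was higher and 6 were lower, with Tyms 4.0-fold and Tk1 3.25-fold lower. The 16 G2 and mitosis genes outside the rule had 7 higher and 0 lower members, with Racgap1 at 36.5 CPM with depletion plus antibody and 12.7 with antibody and Stmn1 at 269 and 134 CPM. Of 11 histone genes 6 were higher, with the linker histone genes Hist1h1d 3.15-fold and Hist1h1c 2.53-fold higher, and 1 lower, Hist1h2ap, whose end is shared with other histone genes. These directions depended on the rule: with cycling cells included, the log2 ratio was −0.64 for Racgap1 and −1.28 for Stmn1, and the median was −0.88 for the G2 and mitosis genes and −0.057 for the histone genes.

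**Figure D4:**
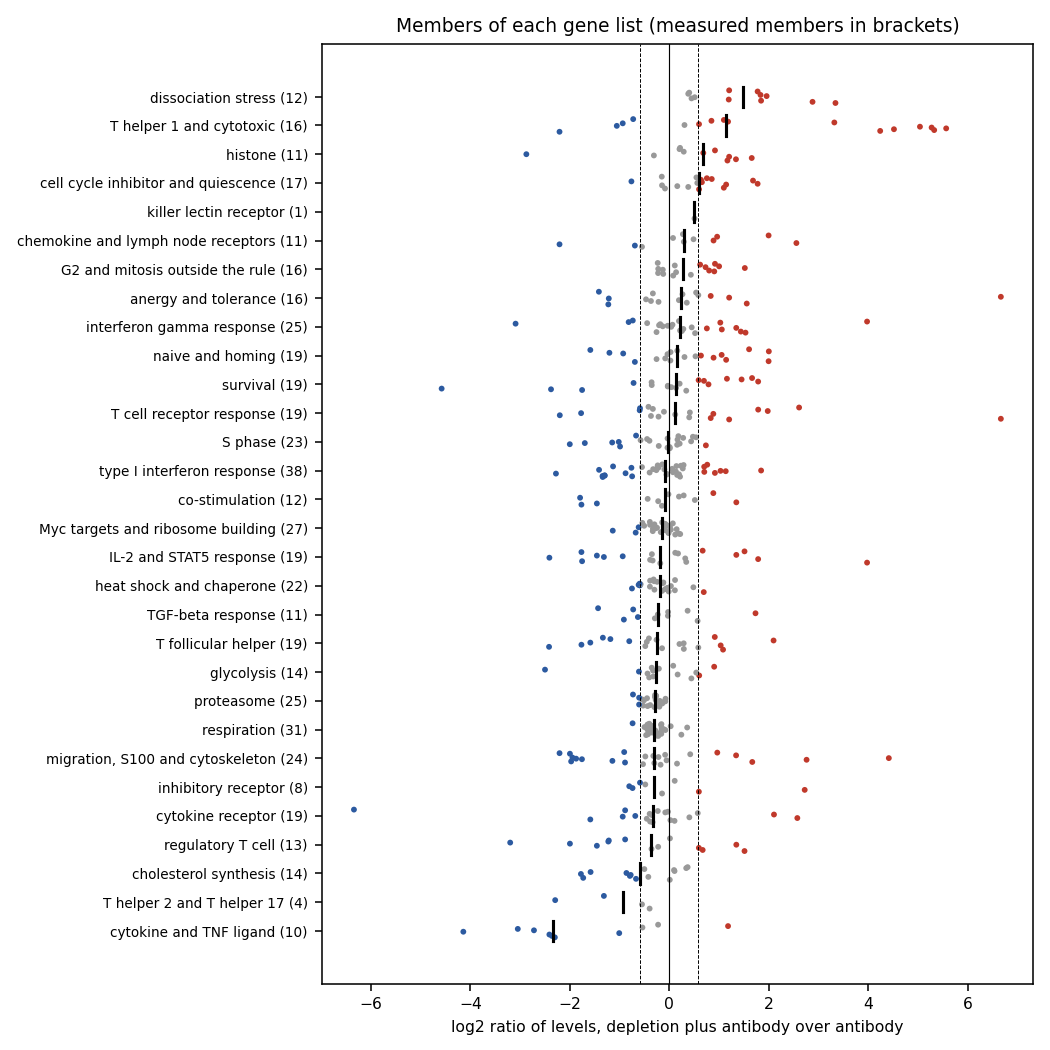
Each point is a measured member of a gene list, placed by its log2 ratio of depletion plus antibody over antibody; the thick bar is the list's median, the dashed lines mark 1.5-fold, and brackets give the number of measured members. The dissociation stress list (median 1.49) and the T helper 1 and cytotoxic list (1.14) stand at the top and the cytokine and TNF ligand list (−2.33) at the bottom; the histone median turned to −0.057 when cycling cells were included.

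Within the depletion plus antibody library the levels could be set beside those of cells the rule left out. The genes given here were picked with their values in view. Cells without a receptor UMI that otherwise met the rule numbered 813. Their intervals overlapped those of chosen cells for Eomes (285 CPM in chosen cells and 231 in these), Gzmk (210 and 191) and Nkg7 (1123 and 1097). Genes whose intervals did not overlap included Itga4, at 705 CPM in chosen cells and 556 in cells without a receptor UMI. Gzmb at 41.4 and 139 CPM, Il7r at 137 and 213 and Wnt10a at 0.985 and 14.8 did not overlap either. Against Foxp3-positive cells (1605 cells) the intervals of the genes named next did not overlap. Eomes stood at 285 CPM in chosen and 13.1 in Foxp3-positive cells, Gzmk at 210 and 16.8, Tcf7 at 1059 and 55.5, and Itga4 at 705 and 68.5, while Ctla4 stood at 199 and 2563, Icos at 209 and 1646, and Gzmb at 41.4 and 2925. Cells with Il2ra but no Foxp3 (286 cells) stood between them for Eomes at 154 CPM, Itga4 at 245, Ctla4 at 1297 and Gzmb at 1143. This did not hold for every gene, as Gzma lay below both at 42.0 CPM (21.7 to 73.3). Gzmk and Gzmb separated: Gzmk was high in chosen cells and in cells without a receptor UMI, and Gzmb in Foxp3-positive cells. Gzma did not separate chosen from Foxp3-positive cells, with overlapping intervals at 145 and 108 CPM.

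The chosen cells were also split by the receptor gene seen. Both segments were seen in 156 cells, Trbv13-1 alone in 705 and Trav14d-3-dv8 alone in 154. Groups this small give wide intervals, so overlap between them says little about how alike they are. Eomes stood at 295 CPM in cells with both segments, 267 with Trbv13-1 alone and 357 with Trav14d-3-dv8 alone, and Nkg7 at 1308, 1058 and 1234 CPM. Intervals did not overlap for Gzma, at 118 CPM with Trbv13-1 alone and 273 with Trav14d-3-dv8 alone. Nor did they for Tubb2b, at 314 CPM with both segments and 149 with Trav14d-3-dv8 alone. Between chosen cells below the median UMI count and from the median up, Eomes stood at 276 and 293 CPM and Gzmk at 221 and 199, but Ccr7, Tubb2b, Nr4a2 and Fos did not overlap. Ccr7 stood at 256 CPM below the median and 142 from it up, Tubb2b at 172 and 291 and Nr4a2 at 69.0 and 138. Chosen cells with a UMI of Nkg7 (503 cells) and without (512 cells) differed in other genes: Eomes stood at 384 and 188 CPM, Gzmk at 326 and 95.7, Gzma at 227 and 64.5 and Itga4 at 966 and 449, whereas Ccr7 stood at 91.5 and 305, Il7r at 53.7 and 219 and Izumo1r at 604 and 1105. In the antibody library 27 chosen cells held a UMI of Nkg7. Eomes stood at 296 CPM in these (8 UMIs, 128 to 584) and 4.64 CPM in the other 1938 (9 UMIs). Gzmk stood at 630 CPM (17 UMIs, 367 to 1008) and 0.516 CPM (1 UMI, under the floor of 3 UMIs). Only 8 chosen cells of the antibody library held the 18 Gzmk UMIs, and the interval leaves out the spread between cells.

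**Figure D5:**
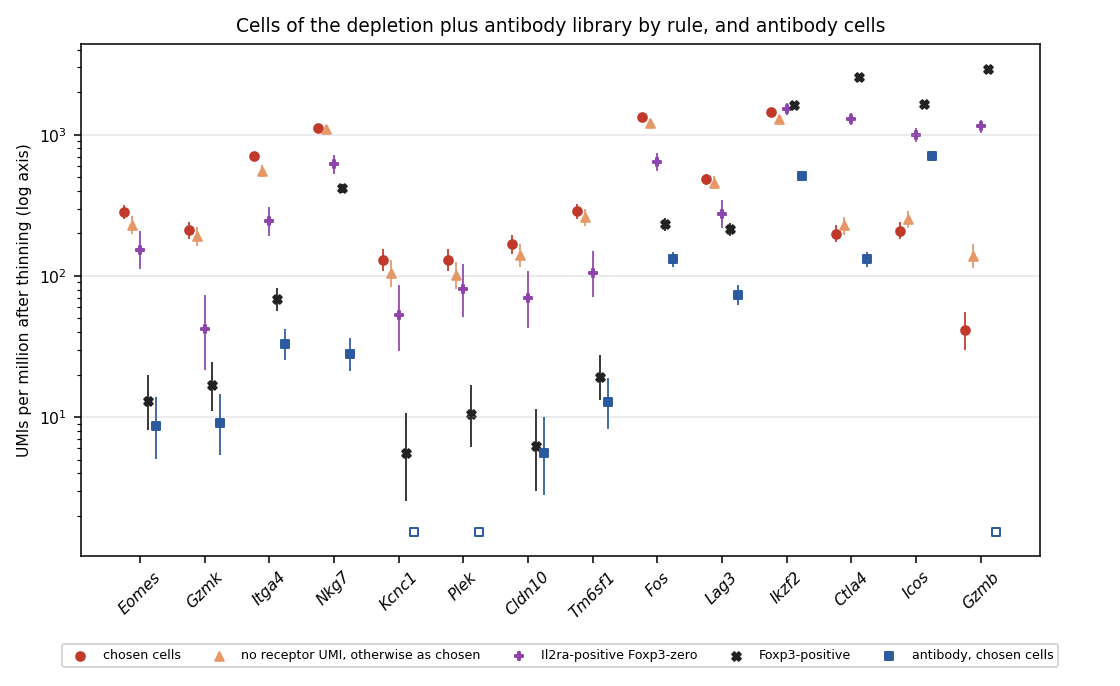
Levels (CPM after thinning, log axis, exact 95% counting intervals) of 14 genes in 4 groups of cells of the depletion plus antibody library and, as squares, in chosen cells of the antibody library; open squares are genes at 0 UMIs, drawn at the floor. Eomes, Gzmk and Itga4 are high in chosen cells and in cells without a receptor UMI and low in Foxp3-positive cells, and Ctla4, Icos and Gzmb the other way round.

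Depletion without antibody gave a second view from libraries that share no cells with this comparison, by the same rule in 292 cells with depletion and 609 in untreated tumor. Eomes stood at 75.3 CPM with depletion and 16.4 in untreated tumor, Nkg7 at 185 and 55.8 and Wnt10a at 6.85 and 258, each in the direction seen with antibody. Fos stood at 414 and 361 CPM, Ikzf2 at 699 and 695 and Izumo1r at 1661 and 1616, where the libraries with antibody were 10.1-fold, 2.85-fold and 2.34-fold apart. Whether these ratios differ between mice with and without antibody was not tested.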

How the data were processed

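The authors deposited a table of raw UMI counts for each library, with 11924 genes as rows and cells as columns. Tools named in the submitters' processing notes are Cell Ranger 6.0.0, bcl2fastq 2.20, Seurat 4.0.4 and R 4.1.1, and the genome build named there is mm10. Per the labels' protocols the libraries were made with a 10x Chromium kit that reads 3′ ends, after the sort. Every value was a whole number and 0 were negative, and genes outside the tables were not analysed here. Values of 2 list genes are not reported here. Coordinates came from GENCODE M21 (GRCm38), which held 11809 of the gene names.

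Cells were chosen on all their UMIs and thinned to 1000 UMIs without replacement (seed 11), and UMIs were summed per library. CPM values carry exact Poisson intervals, ratios exact conditional binomial (Clopper-Pearson) intervals and shares exact binomial ones, all at 95% and for counting error only. A gene counted as measured with at least 50 UMIs over both libraries and as higher or lower from 1.5-fold. The computation was checked on simulated counts. No doublet caller was run. Overlap of intervals between groups of cells was looked at in 32 genes picked with their values in view. The pick and the group sizes bear on it, so it is no measure of how alike the groups are.

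The members, the 30 gene lists (567 of 600 genes in the tables) and the tests were chosen with earlier results of these data known, and nothing shown before is independent support. Named are the 15 highest and 15 lowest measured genes, ranked on whichever interval bound lay closer to 1 (the genes of the rule, unnamed models, and hemoglobin, immunoglobulin, receptor variable, sex-linked, ribosomal and mitochondrial genes left aside), the 2 to 4 members of each list that lay farthest from a ratio of 1, and 20 fixed genes. Ccl5, Il2, Tnf, Fasl, Itgb1, Id2, Il18r1, Sox4, Myb, Gimap5, Gimap6 and Gimap7 fall outside this rule and were picked with their values in view.

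Alternatives covered the thinning depth, its seed, no thinning, the mean of single-cell proportions, each part of the rule, cells with markers of another type, of Tregs or of unprimed cells left out, TMM factors, median-of-ratios factors, totals without mitochondrial and ribosomal genes, the UMI minimum and the fold. Added after the data had been seen were cells of 1500 to 3000 UMIs, UMIs of both receptor genes, antibody cells first thinned to the other library's depths, and totals without dissociation stress genes. The definition of cells that are not T cells took in 379 cells with depletion plus antibody, in which the Treg gene Ikzf2 stood at 1332 CPM. Shares therefore use a narrower definition, at least 3 of 15 B cell and myeloid markers and no receptor UMI, set after the values had been seen. TMM factors came from edgeR 4.0.16 in R 4.3.3, and everything else from pandas 2.3.3, scipy 1.17.1, numpy 2.4.6 and matplotlib 3.10.9 under Python 3.11.15.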

Additional observations from a re-analysis of the deposited data

Results flagged for a closer look

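Icos, the co-stimulator gene, went in opposite directions with depletion. Its log2 ratio of depletion over no depletion was −1.77 with antibody (209 CPM with depletion plus antibody, 711 with antibody) and 1.33 without (695 CPM with depletion, 276 in untreated tumor). The 2 ratios come from 4 separate libraries, 1 each, and their difference was not tested.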

How the results depend on the processing

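No paired analysis was possible because each group has 1 library and the result comes from no test. Under the alternatives that changed cells, depth or scaling, between 844 and 1186 genes were at least 1.5-fold higher and between 801 and 1189 lower, against 1005 and 943, except with cells holding UMIs of both receptor genes (156 and 498 cells), where 1532 were higher and 1694 lower. With the rule applied to the thinned UMIs, 666 and 949 cells gave 1090 and 1066 genes. A minimum of 200 UMIs left 390 higher and 390 lower, and at least 1 UMI gave 2500 and 1924. At 2-fold 391 and 377 remained. A second random draw gave 1005 and 946 genes, of which 753 and 690 were among those counted, so many genes near 1.5-fold depend on the draw. For 135 named results and 21 alternatives, 2547 of 2835 log2 ratios stayed within the counting interval of the reported ratio, 281 left it and 7 went from past 1.5-fold to the opposite sign: in cells of 1500 to 3000 UMIs Ctla2a was 0.35 and Gins2 0.69; with no rule on cycling genes Racgap1 was −0.64, Stmn1 −1.28, H2afz −0.057 and Kif20b −0.54; and with UMIs of both receptor genes Racgap1 was −0.13. Of 630 list medians 439 moved by less than 0.1, 190 by more and 1 went from past 1.5-fold to the opposite sign, histone genes at −0.057 with no rule on cycling genes. Inside 1.5-fold, 5 genes (Cxcr5, Pdcd1, Il7r, Ccr4 and Klrb1c) and 10 medians changed sign under some alternative, among them naive and homing (−0.18 to 0.37), regulatory T cell (−1.23 to 0.27) and G2 and mitosis genes (−0.88 to 0.60), so their direction is not settled. The cause was not tested. Genes under 50 UMIs, Ifng, Tbx21, Gzmb and Nrn1 among them, are limited by depth.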

Other observations

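Further abundant genes stood apart in the chosen cells, 2 of them on no list. Sox4, a transcription factor gene of early lymphocytes, stood at 1145 CPM with depletion plus antibody and 253 with antibody (4.52-fold higher, 4.06 to 5.03), and Myb, a factor of progenitor and memory T cells, at 890 and 158 CPM (5.62-fold higher, 4.94 to 6.41). Of the GIMAP genes counted in the survival list, which encode small GTPases of lymphocytes, Gimap7 stood at 365 CPM with depletion plus antibody and 115 with antibody, Gimap5 at 884 and 323 and Gimap6 at 1444 and 647. They were picked with their values in view.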
